A study of Mus musculus with 30 samples.

Results

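Erythroid genes were followed in mouse fracture callus, 9 in all: *Alas2*, *Slc4a1*, *Klf1*, *Epor*, *Ahsp*, *Gata1*, *Rhag*, *Tfrc* and *Epb42*. They were chosen by name as genes of red cell precursors other than beta globins, whose transcripts were depleted from the libraries. Of these 9 genes, 8 were matched in a count table of 55416 gene IDs, and *Ahsp* was not analysed here. Bulk RNA-seq covered 30 calluses from closed, non-stabilized fractures of the left tibia, made in mice aged 7 to 12 weeks. In P-Apex1KO mice (Prrx1-Cre+;Apex1 C/C), Cre driven from *Prrx1* deletes both conditional *Apex1* alleles in limb bud mesenchyme, and whether blood cells of these mice keep the gene was not measured. The WT littermates were of any of 3 genotypes (Prrx1-Cre+/-;Apex1 C/+, Apex1 C/C or Apex1 C/+), so every mouse of either group carried at least 1 conditional allele. There were 4 WT mice (2 females) and 4 mice labelled P-Apex1KO (1 female) at 3 days post fracture (3-dpf), 5 WT (3 females) and 3 P-Apex1KO (1 female) at 6-dpf, 4 WT (2 females) and 3 P-Apex1KO (1 female) at 10-dpf, and 4 WT (1 female) and 3 P-Apex1KO (3 females) at 14-dpf.

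Red cells are made in the bone marrow from progenitors that depend on erythropoietin, which signals through the receptor encoded by *Epor*. The transcription factors encoded by *Gata1* and *Klf1* switch on the genes of haemoglobin, haem and the red cell membrane, and the transferrin receptor encoded by *Tfrc* brings in the iron. Mature mouse red cells have no nucleus and little RNA, so that the RNA the red cell lineage adds to a tissue comes mainly from erythroblasts and reticulocytes. Other dividing or iron-using cells carry *Tfrc* too. A fracture opens the marrow cavity, and a callus can hold blood clot, marrow and new bone side by side. In RNA from bulk callus, more cells of a type and more RNA per cell cannot be told apart.

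The DNA just before the transcription start of these genes is shown because the factors encoded by *Gata1* and *Klf1* are themselves among the genes followed. In the 250 bases upstream of the start of each gene's canonical transcript (GENCODE M39, GRCm39, read from the genome), the letters AGATAA or the letters TGATAA, both forms of the GATA factor motif, stood on either strand of 6 of 8 genes. Of 21614 protein-coding genes, 3455 (16%) held either form in the same window, with AGATAA in 9.64% and TGATAA in 7.65%. The letters CCNCNCCC, a loose form of the motif of Krüppel-like factors, stood in 4 of 8 windows and in 48.8% of all. *Tfrc* and *Gata1* had neither GATA form in this window. For the 6 genes that had one, the last 80 bases before the start are given 5′ to 3′ on the gene's strand, with matches to any of the 3 motifs, read on either strand, in capitals.
Slc4a1, chr11:102256107-102256186, minus strand: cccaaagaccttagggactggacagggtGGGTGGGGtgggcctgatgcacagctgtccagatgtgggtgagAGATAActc
Epb42, chr2:120867554-120867633, minus strand: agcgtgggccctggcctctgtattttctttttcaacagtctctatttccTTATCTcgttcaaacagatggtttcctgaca
Rhag, chr17:41121937-41122016, plus strand: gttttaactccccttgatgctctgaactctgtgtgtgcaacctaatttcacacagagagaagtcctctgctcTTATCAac
Alas2, chrX:149330291-149330370, plus strand: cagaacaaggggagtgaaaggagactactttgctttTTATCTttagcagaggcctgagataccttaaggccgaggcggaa
Klf1, chr8:85628477-85628556, plus strand: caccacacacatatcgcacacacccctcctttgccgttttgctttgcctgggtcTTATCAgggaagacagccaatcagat
Epor, chr9:21874874-21874953, minus strand: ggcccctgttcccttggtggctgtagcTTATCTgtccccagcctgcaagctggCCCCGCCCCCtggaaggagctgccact
In each of these genes the GATA match lay within the last 53 bases, from 53 to 48 bases upstream in *Epor* to 8 to 3 bases upstream in *Rhag*. For *Slc4a1*, *Gata1*, *Tfrc* and *Epor* other annotated transcripts start further upstream, so that the window lies wholly or partly inside the gene's full span. A match of letters is a description of the sequence and not a bound site.

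**Figure D1:**
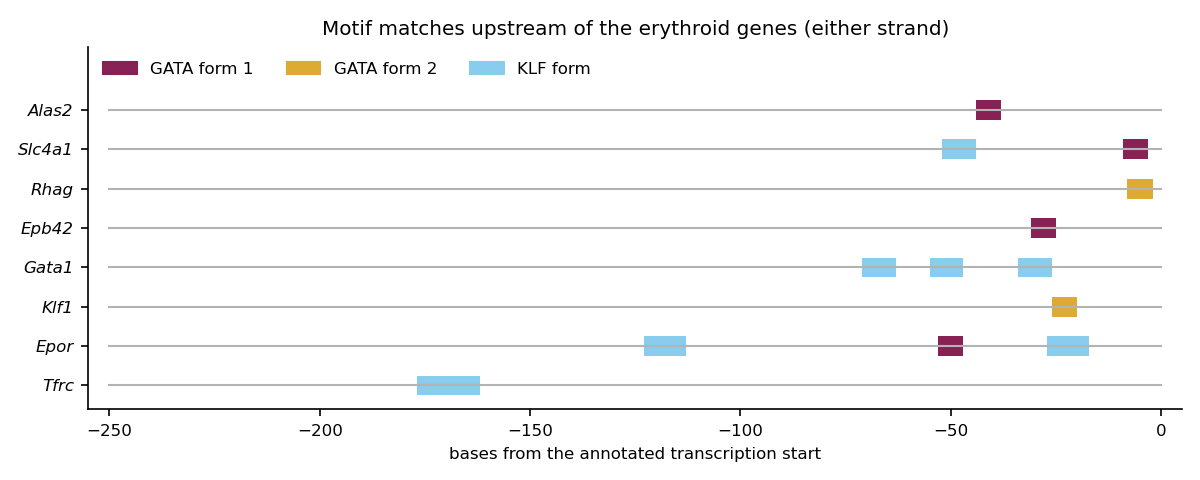
Positions of motif matches in the 250 bases upstream of the annotated start of 8 erythroid genes, with the distance from the start in bases on the horizontal axis. The first GATA form is AGATAA, the second is TGATAA and the third motif, the KLF form, is CCNCNCCC, and matches on either strand are drawn, while *Tfrc* and *Gata1* show no GATA form.

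Reads counted on genes ran from 23.5 M to 43.1 M in the 16 libraries of 3- and 6-dpf and from 18.3 M to 25.2 M in the 14 libraries of 10- and 14-dpf, which also carry another style of library name. Levels between 6- and 10-dpf were therefore not compared by a test. *Apex1*, given in CPM (read counts scaled to a common library total), was lower in every P-Apex1KO mouse than in every WT mouse at 6-dpf (15.1 to 15.9 against 20.7 to 28.9), at 10-dpf (14.0 to 16.8 against 16.9 to 27.5) and at 14-dpf (14.2 to 18.6 against 19.8 to 27.2), and its difference passed the test at 6- and 10-dpf but not at 14-dpf with sex in the model (adjusted p = 0.367). At 3-dpf it overlapped, with 18.4 to 34.6 CPM in the libraries labelled P-Apex1KO and 26.5 to 33.1 CPM in WT, and the highest value of all was in P-Apex1KO replicate 4, against its label. Directions at 3-dpf are therefore given for libraries labelled P-Apex1KO. WT replicate 1 and P-Apex1KO replicate 1 at 3-dpf stood apart from the other 6 libraries of that day, with the summed CPM of the 8 genes at 363 and 256 against 994 to 2211.

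All 8 genes were counted in every library, with a lowest count of 48 reads (*Klf1* in P-Apex1KO replicate 1 at 3-dpf). Per kilobase of exon, so that genes can be set against each other, the mean level over the 30 libraries was highest for *Slc4a1* at 157.5 CPM per kb, followed by *Alas2* at 112 and *Tfrc* at 47.3. *Rhag* (15.3), *Klf1* (14.0), *Epb42* (11.5), *Gata1* (9.1) and *Epor* (6.8) formed a lower group. *Slc4a1* and *Alas2* thus stood well above the transcription factors and the receptor for erythropoietin, while the membrane genes *Rhag* and *Epb42* were at levels like those of the factors.

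**Figure D2:**
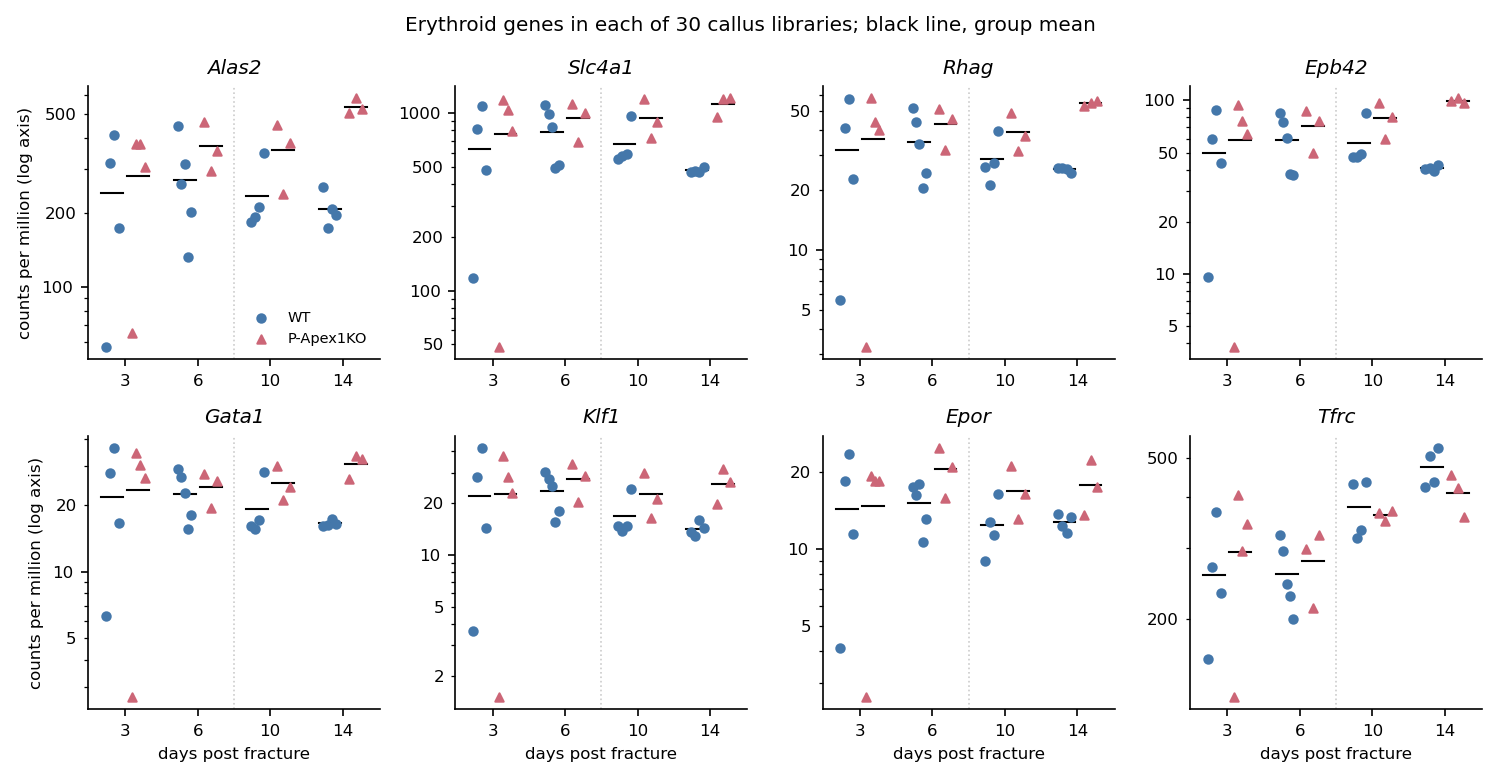
Level of each erythroid gene in each mouse, in CPM on a log axis, by days post fracture, with circles for WT, triangles for P-Apex1KO and a black line for the group mean. The genotypes overlap in all 8 genes at 3-, 6- and 10-dpf and separate in 6 of 8 at 14-dpf, and the 2 low libraries at 3-dpf stand at the bottom of each panel.

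*Slc4a1* (ENSMUSG00000006574, chr11:102239650-102257029) encodes band 3, the anion exchanger that carries chloride and bicarbonate across the red cell membrane. At 14-dpf it stood at 468, 470, 468 and 500 CPM in the 4 WT mice and at 949, 1207 and 1210 CPM in the 3 P-Apex1KO mice. The WT mice lay within 1.07-fold of each other, and the lowest P-Apex1KO mouse was well above the highest of them. Means were 476 ± 15.7 (SD, n = 4) and 1122 ± 150 CPM (SD, n = 3), and the log2 fold change with sex in the model was 1.29 (SE 0.19, adjusted p = 0.00614), a 2.45-fold difference. Each fold change of 14-dpf with sex in the model, here and below, sets the P-Apex1KO mice against the only WT female, here at 468 CPM. Earlier *Slc4a1* overlapped between genotypes, with 117, 817, 1100 and 481 CPM in WT and 48.3, 1183, 1047 and 791 CPM in the libraries labelled P-Apex1KO at 3-dpf. At 6-dpf it ran from 488 to 1104 CPM in WT and from 692 to 1132 in P-Apex1KO, and at 10-dpf from 548.5 to 966 and from 722 to 1208 CPM. The 4 WT mice of 14-dpf were below every WT mouse of 10-dpf, and the P-Apex1KO mice of both days overlapped.

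*Epb42* (ENSMUSG00000023216, chr2:120848372-120867553) encodes protein 4.2, which links band 3 to the ankyrin of the membrane skeleton. With sex in the model it showed the largest fitted genotype difference of the 8 genes at 14-dpf, while *Alas2* was ahead of it without the sex term (1.41 against 1.33). The 4 WT mice of 14-dpf were at 40.5, 40.6, 39.1 and 42.4 CPM and the 3 P-Apex1KO mice at 99.2, 102.6 and 96.2 CPM. The groups did not overlap, and the log2 fold change was 1.32 (SE 0.12, adjusted p = 0.000984), or 2.50-fold. In the other groups its mean ran from 50.04 ± 32.5 CPM in WT at 3-dpf (SD, n = 4) to 78.7 ± 18.4 CPM in P-Apex1KO at 10-dpf (SD, n = 3).

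*Rhag* (ENSMUSG00000023926, chr17:41122017-41151645) encodes the Rh-associated glycoprotein, the partner that carries the Rh proteins to the red cell surface. At 14-dpf the WT mice were at 25.8, 25.9, 25.4 and 24.4 CPM and the P-Apex1KO mice at 53.1, 54.8 and 56.0 CPM. Both groups were tight, with coefficients of variation of 2.71% and 2.73%, and did not overlap. The log2 fold change was 1.11 (SE 0.12, adjusted p = 0.0022). Across the other 6 groups single mice ran from 3.25 CPM in P-Apex1KO replicate 1 to 57.7 CPM in P-Apex1KO replicate 2, both at 3-dpf.

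*Alas2* (ENSMUSG00000025270, chrX:149330371-149353634) encodes the erythroid form of the first enzyme of haem synthesis. At 14-dpf it stood at 254, 174, 208 and 195 CPM in WT, the first of them the female, and at 507, 580 and 528 CPM in P-Apex1KO. The female WT mouse was the highest of its group, and the lowest P-Apex1KO mouse was above it. The log2 fold change was 1.11 (SE 0.16, adjusted p = 0.00514) with sex in the model and 1.41 (SE 0.13) without it, the widest gap between these 2 fits among the 8 genes. At 10-dpf its levels were 183, 193, 210.5 and 348.5 CPM in WT and 452, 239 and 384 CPM in P-Apex1KO. At 6-dpf they were 450, 262, 315, 132 and 202 CPM in WT and 468, 296 and 357 CPM in P-Apex1KO. On both days the ranges overlapped, and the highest mouse was a P-Apex1KO female.

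*Gata1* (ENSMUSG00000031162, chrX:7825499-7844310) encodes the master transcription factor of red cells and megakaryocytes. At 14-dpf it was at 16.2, 16.3, 17.3 and 16.4 CPM in WT and at 26.3, 33.6 and 32.3 CPM in P-Apex1KO. The groups did not overlap, with a log2 fold change of 0.95 (SE 0.19, adjusted p = 0.0169). *Klf1* (ENSMUSG00000054191, chr8:85628557-85631934) encodes the Krüppel-like factor of the erythroid lineage. Its 14-dpf levels were 13.5, 12.8, 15.99 and 14.2 CPM in WT and 19.7, 31.4 and 26.4 CPM in P-Apex1KO. Here too no mouse overlapped, but the P-Apex1KO mice were spread 1.59-fold, and the log2 fold change of 0.96 (SE 0.28) did not pass the threshold (adjusted p = 0.0654). At 6- and 10-dpf the log2 fold changes of both factors were between 0.18 and 0.43, with SEs of 0.22 to 0.28 and overlapping mice.

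*Epor* (ENSMUSG00000006235, chr9:21870192-21874879) encodes the erythropoietin receptor and was the lowest of the 8 genes per kilobase. At 14-dpf it stood at 13.7, 12.3, 11.6 and 13.3 CPM in WT and at 13.7, 22.2 and 17.4 CPM in P-Apex1KO. P-Apex1KO replicate 1 lay within the WT range, and the log2 fold change of 0.40 (SE 0.27) did not pass (adjusted p = 0.378). The differences of the earlier days were of like size, at 0.54 (SE 0.18, adjusted p = 0.0814) at 6-dpf and 0.46 (SE 0.23, adjusted p = 0.284) at 10-dpf. Of the 8 genes it came nearest to the threshold at 6-dpf, where it passed with DESeq2 (adjusted p = 0.0414).

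*Tfrc* (ENSMUSG00000022797, chr16:32427556-32451612) encodes the transferrin receptor, which erythroblasts carry in large numbers and which other dividing or iron-using cells carry too. At 14-dpf it was at 424, 505.5, 436 and 527 CPM in WT and at 452, 421 and 356 CPM in P-Apex1KO. The groups overlapped, with a log2 fold change of -0.02 (SE 0.16, adjusted p = 0.944), so that it did not follow the other genes on that day. Its lowest groups were WT at 3- and 6-dpf, at 256.5 ± 86.7 and 257.5 ± 49.8 CPM (SD, n = 4 and 5), and its highest was WT at 14-dpf, at 473 ± 50.9 CPM (SD, n = 4). In WT *Tfrc* was thus highest on the day when *Slc4a1*, *Alas2*, *Rhag*, *Epb42*, *Gata1* and *Klf1* had their lowest WT means. These means span the change in library naming between 6- and 10-dpf, and their order was not tested.

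**Figure D3:**
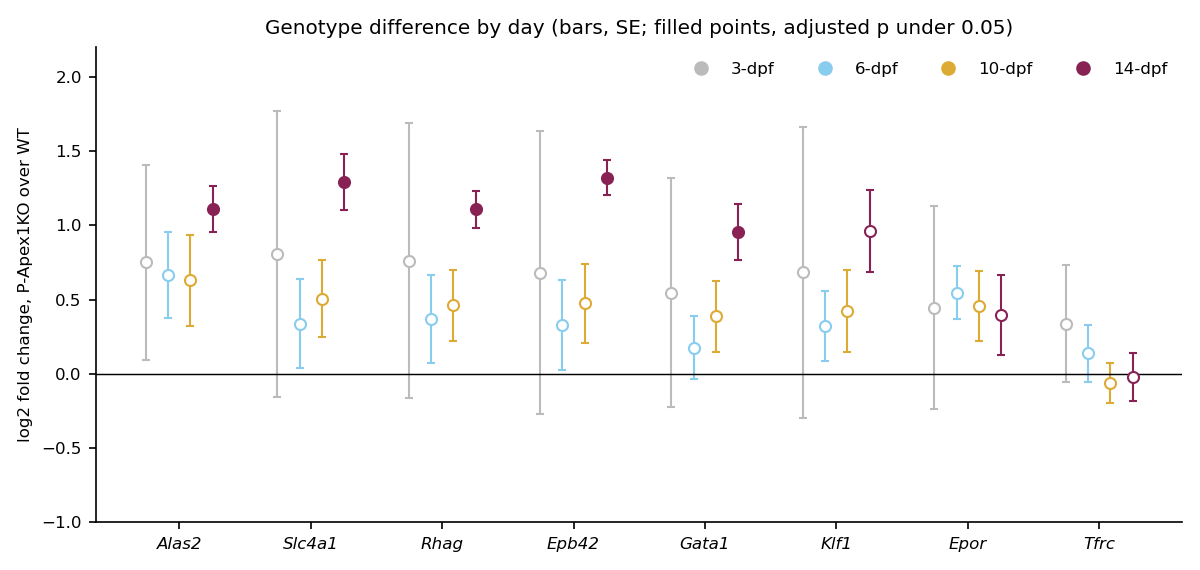
Log2 fold change of P-Apex1KO over WT for each erythroid gene at 3-, 6-, 10- and 14-dpf from a separate model for each day with sex as a term, with bars for the SE and filled points for an adjusted p under 0.05. Filled points mark 5 genes, all at 14-dpf and between 0.95 and 1.32, and *Tfrc* lies near 0 at 10- and 14-dpf.

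At 14-dpf, 5 of 8 erythroid genes were thus higher in P-Apex1KO (*Epb42*, *Rhag*, *Alas2*, *Slc4a1* and *Gata1*) and 0 were lower, where 4.28% of the 20228 genes tested were higher and 7.04% lower. Every P-Apex1KO mouse was above every WT mouse in 6 of 8, a separation found in 18.5% of all genes tested. The median log2 fold change of the 8 genes was 1.03, beside 0.04 over all genes. All P-Apex1KO mice of that day were female, so its sex term came from WT mice alone. The difference with sex thus set the 3 P-Apex1KO mice against the 1 WT female. With all 30 samples in 1 model 0 of 8 passed, where 12.7% of 20642 genes were higher and 17.3% lower. Log2 fold changes of the 5 genes ran from 0.64 for *Gata1* to 1.02 for *Epb42* (edgeR, adjusted p = 0.152 to 0.39). That model estimates sex across days and also takes each gene's spread from all days. For *Epb42* in WT the coefficient of variation was 64.9% at 3-dpf and 3.28% at 14-dpf. Which of these moved the calls was not tested. Without a sex term 7 of 8 were higher, including *Klf1* and *Epor*, where 18.8% of genes were, and 6 or 7 of 8 when each mouse in turn was left out as well, where 12.6% to 18.3% of genes were. *Tfrc* was at 0.25 on the log2 scale when libraries were scaled by their size alone.

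At 10-dpf 0 of 8 genes passed the threshold with edgeR or DESeq2, where 3.01% of 18910 genes were higher and 3.44% lower with edgeR, and 0 of 8 had an unadjusted p under 0.05, where 24.3% of all did. With the replicate number in place of sex in the model 4 of 8 were called, where 3.78% of all genes were higher. Log2 fold changes were 0.63 (SE 0.31) for *Alas2*, 0.50 (SE 0.26) for *Slc4a1* and between 0.39 and 0.47 for *Epb42*, *Rhag*, *Epor*, *Klf1* and *Gata1*, against -0.06 (SE 0.14) for *Tfrc*. WT replicate 4 was the highest WT mouse in each of the 8 genes, for example at 84.2 CPM of *Epb42* against 46.9 to 49.4 CPM in the other 3. Without it 5 of 8 genes were called higher, where 5.38% of all genes were, with log2 fold changes of 0.80 for *Slc4a1*, 0.78 for *Epb42*, 0.73 for *Klf1*, 0.70 for *Rhag* and 0.68 for *Gata1*. Without P-Apex1KO replicate 1, the female, the fitted values of the 7 genes other than *Tfrc* fell to between -0.06 and 0.15, so that the size of the difference at 10-dpf hangs on 2 mice.

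At 6-dpf 0 of 8 genes passed, where 5.31% of 20260 genes were higher and 5.61% lower, and 2 of 8 (*Alas2* and *Epor*) had an unadjusted p under 0.05, as 26.2% of all genes did. The fitted values were all above 0, from 0.14 (*Tfrc*, SE 0.19) to 0.67 (*Alas2*, SE 0.29, adjusted p = 0.181), but with the replicate number in place of sex in the model 6 of 8 were below 0, from -0.11 to -0.018. At 3-dpf 0 of 8 genes passed, and so did 0.0% of 19866 genes tested with edgeR, although 1216 of them (6.12%) had an unadjusted p under 0.05 and DESeq2 called 85. No erythroid gene had an unadjusted p under 0.05 at 3-dpf, and the log2 fold changes of 0.34 (*Tfrc*) to 0.81 (*Slc4a1*) had SEs of 0.39 to 0.98. With the replicate number in place of sex 5 of 8 were below 0, from -0.11 to -0.013. With both low libraries left out the SEs fell to between 0.23 and 0.41 and the log2 fold changes to between 0.25 and 0.57, with 0 of 8 called. Those 2 libraries were also low in the neutrophil precursor list described further on, at 1837 and 508 CPM against 2647 to 5173 CPM in the other 6, and in the eosinophil list, at 164 and 56.4 CPM against 226 to 758 CPM.

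Whether the genotype difference changed with time was tested within each pair of neighbouring days. Between 10- and 14-dpf 0 of 8 genes passed with edgeR or DESeq2. With edgeR 0.0406% of 19705 genes had a higher and 0.396% a lower difference at 14-dpf, and 3 of 8 had an unadjusted p under 0.05, beside 13.1% of all. The interaction terms were 0.89 for *Epb42* (SE 0.31, adjusted p = 0.248) and 0.78 for *Slc4a1* (SE 0.32, adjusted p = 0.317), so that the higher levels of 14-dpf were not shown to exceed the differences of 10-dpf. In WT, *Epb42* stood 0.51 lower on the log2 scale at 14- than at 10-dpf (SE 0.19, adjusted p = 0.106) and *Slc4a1* likewise 0.51 lower (SE 0.19, adjusted p = 0.116). In P-Apex1KO, *Alas2* stood 0.55 higher (SE 0.29, adjusted p = 0.415) and *Rhag* 0.51 higher (SE 0.21, adjusted p = 0.292). Of the 8 genes 0 passed in WT, where 6.19% of genes rose and 4.92% fell, with 3 of 8 and 25.4% of all at an unadjusted p under 0.05. Without P-Apex1KO replicate 1 of 10-dpf in the shared model, 2 of 8 were called lower in WT, as were 4.89% of all genes. In P-Apex1KO 0 of 8 passed, where 0.0304% of genes rose and 0.228% fell, with 1 of 8 and 14.3% of all at an unadjusted p under 0.05. All 30 samples are labelled fracture callus, but the study's text speaks of tissue taken round the fracture of the tibia for 3-dpf and of the entire callus for 6-dpf, so that day and the tissue taken cannot be told apart between them. Between 3- and 6-dpf 0 of 8 passed in the interaction (1.3% of genes called), in WT (30.5% called) or in P-Apex1KO (14.0% called), and 0 of 8 had an unadjusted p under 0.05, beside 12.5%, 40.7% and 28.4% of all genes. DESeq2 too called 0 of 8 in each of these changes.

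The spread between WT mice of a group was narrowest at 14-dpf in each of the 8 genes. For *Slc4a1* the coefficient of variation was 67.5% at 3-dpf, 35.3% at 6-dpf, 29.7% at 10-dpf and 3.29% at 14-dpf, and for *Klf1* it was 75.3%, 27.3%, 29.2% and 9.64%. In P-Apex1KO the *Slc4a1* values were 66.0%, 24.0%, 26.2% and 13.4%, and 14-dpf was the narrowest day in 6 of 8 genes, but not in *Epor* (24.2%, against 21.9% at 6-dpf) or *Tfrc* (11.9%, against 3.03% at 10-dpf). The values of 3-dpf were carried by the low libraries, and without replicate 1 of each group *Slc4a1* was at 38.8% in WT and 19.7% in the libraries labelled P-Apex1KO. Without it the WT spread of 3-dpf remained the widest of the 4 days in 6 of 8 genes, the exceptions being *Alas2* (40.2%, against 44.2% at 6-dpf) and *Epb42* (35.1%, against 36.6%). These are descriptions of 3 to 5 mice a group.

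Within groups the 8 genes went up and down together. Over deviations of log2 CPM from the group mean in 30 libraries, Pearson's r was between 0.93 and 0.996 for the 21 pairs without *Tfrc* and between 0.83 and 0.92 for the 7 pairs with it. These points share their libraries and depth, and the 2 low libraries at 3-dpf carry much of the range. Among the 15935 genes that averaged 1 CPM or more, those most like the mean of the 8 included *Rhd*, *Tspan33*, *Car2*, *Cldn13*, *Hemgn*, *Nxpe2*, *Dmtn* and *Add2*, with r from 0.992 to 0.996 over 30 libraries and from 0.941 to 0.977 over the 22 libraries without 3-dpf. *Rhd* encodes a blood group protein of the Rh complex, *Car2* a carbonic anhydrase, and *Dmtn* and *Add2* proteins of the membrane skeleton. In the same ranking *Epor* stood 46th, *Alas2* 96th and *Tfrc* 188th, and over the 22 libraries without 3-dpf their r with that mean, which holds the genes themselves, was 0.847, 0.912 and 0.726.

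Ratios of read counts within a library show how closely the genes kept step without any scaling between libraries. *Epb42* to *Slc4a1* kept between 0.0722 and 0.105 in all 30 libraries, whatever the day or genotype. *Alas2* to *Slc4a1* ran from 0.266 to 0.543 in 29 libraries and 1.35 in P-Apex1KO replicate 1 at 3-dpf, where *Slc4a1* was at its lowest. *Tfrc* to *Slc4a1* ran from 0.906 to 1.08 in the WT mice of 14-dpf and from 0.294 to 0.476 in the P-Apex1KO mice, with no overlap. On that day *Slc4a1* itself separated the genotypes and *Tfrc* did not, so this gap is not a result apart from *Slc4a1*. At 6-dpf the ratio of *Tfrc* to *Slc4a1* overlapped, at 0.29 to 0.466 in WT and 0.262 to 0.322 in P-Apex1KO. The 2 low libraries at 3-dpf had the highest *Tfrc* ratios of all, 1.36 and 2.66.

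**Figure D4:**
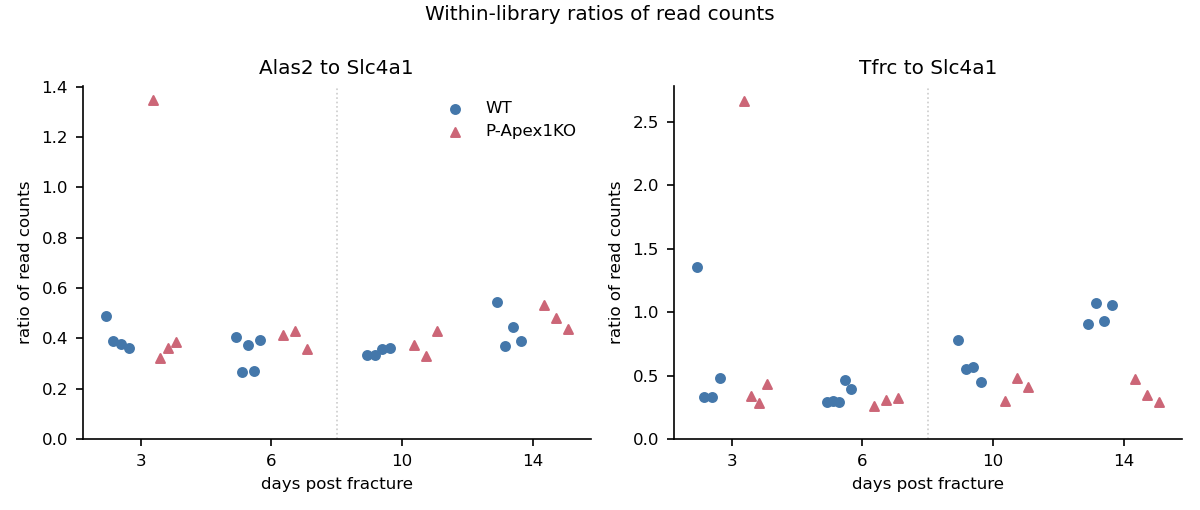
Ratio of read counts within each library for *Alas2* to *Slc4a1* and for *Tfrc* to *Slc4a1* by days post fracture, with circles for WT and triangles for P-Apex1KO. The *Tfrc* ratio separates WT (0.906 to 1.08) from P-Apex1KO (0.294 to 0.476) at 14-dpf, and P-Apex1KO replicate 1 at 3-dpf is the highest point in both plots.

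Osteoclasts also carry *Tfrc*. At 14-dpf the summed level of 8 osteoclast markers, among them *Ctsk* and *Acp5*, was 12100 to 13800 CPM in WT and 1590 to 3100 CPM in P-Apex1KO. Of these 8 markers 8 were lower, beside 7.04% of all genes, with a median log2 fold change of -2.47. In WT this sum was 698 to 861 CPM at 3-dpf, 985 to 1250 CPM at 6-dpf and 3260 to 7540 CPM at 10-dpf. Its part in the *Tfrc* level was not tested.

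Lists of other genes of the red cell pathway, none of which holds the 8 genes, were read beside them at 14-dpf. Over all genes 4.28% were higher and 7.04% lower on that day. Of 14 genes of the red cell membrane and skeleton, 12 were higher in P-Apex1KO and 0 lower, with a median log2 fold change of 1.00. Among them *Dmtn*, which bundles actin in the membrane skeleton, was higher by 1.16 on the log2 scale (SE 0.13, adjusted p = 0.00223), *Add2* by 1.00 (SE 0.14, adjusted p = 0.00508) and *Rhd* by 0.91 (SE 0.20, adjusted p = 0.025). Of 14 genes of terminal erythroid maturation 11 were higher and 0 lower (median 1.07), led by *Trim10* at 1.42 (SE 0.21) and *Trim58*, a ubiquitin ligase of late erythroblasts, at 1.34 (SE 0.19).

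Of 7 further enzymes of haem synthesis 6 were higher and 0 lower at 14-dpf (median 0.66). The second enzyme of the pathway, encoded by *Alad*, was at 25.1 ± 1.19 CPM in WT and 56.9 ± 12.7 CPM in P-Apex1KO (SD, n = 4 and 3), with a log2 fold change of 1.24 (SE 0.24, adjusted p = 0.0174). Of 12 erythroid transcription factors and partners 6 were higher and 1 lower. *Myb* (1.37, SE 0.32, adjusted p = 0.0379) and *Ikzf1* (1.20, SE 0.26, adjusted p = 0.0258), which serve progenitors of several blood lineages, led the first, and *Ldb1*, a widely expressed bridging protein of the GATA1 complex, fell by 0.56 (SE 0.13, adjusted p = 0.029). With library size as the sole scaling, which moved the median of all genes up by 0.31, the *Ldb1* difference no longer passed (-0.29, adjusted p = 0.154).

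Of 4 haemoglobin genes tested 2 were higher at 14-dpf, *Hbb-bs* by 1.32 (SE 0.24, adjusted p = 0.013) and *Hbb-bt* by 1.32 (SE 0.25, adjusted p = 0.0165). Beta globin RNA was depleted and haemoglobin genes took 0.0044% to 0.0368% of the counts of a library, while *Hba-a1* and *Hba-a2*, near-identical copies that share reads, had a mean of 2.35 CPM or less in each group, so these values are what depletion and unique counting left. At 6-dpf 1 of 4 was higher, *Hbb-bs* by 0.87 (SE 0.20, adjusted p = 0.0241), with *Hba-a2* at 1.21 (SE 0.56, adjusted p = 0.202). Among the fits in which *Hbb-bs* no longer passed at 6-dpf were those without a sex term (0.67, adjusted p = 0.167), with no filter, in the model of all samples, and without WT replicate 2 or 4 or P-Apex1KO replicate 1 or 3. It passed in the other 4 fits that left out 1 mouse. At 10-dpf 0 of 4 passed. Of 7 genes tested in the erythropoietin pathway 2 were higher at 14-dpf, *Bcl2l1*, which protects erythroblasts from cell death, by 1.00 (SE 0.15, adjusted p = 0.00637) and the kinase gene *Pim1* by 0.83 (SE 0.16, adjusted p = 0.0148). On the 10th day 2 others were higher, *Stat5b*, also called at 6-dpf (0.54, adjusted p = 0.0437), by 0.45 (SE 0.09, adjusted p = 0.0244) and *Stat5a* by 0.34 (SE 0.08, adjusted p = 0.0393), of which *Stat5a* passed in 0 of the 7 fits that left out 1 mouse. The hormone itself, *Epo*, was at 0 in 7 of 8 groups.

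Genes of iron uptake and handling did not follow. Of 10 genes 0 were higher and 1 lower at 14-dpf (median -0.15). On day 6, the day with most calls in this list, *Fth1*, the heavy chain of ferritin, was higher in P-Apex1KO by 0.51 (SE 0.13, adjusted p = 0.0397) and *Slc40a1*, the iron exporter ferroportin, lower by 0.45 on the log2 scale (SE 0.09, adjusted p = 0.0163). *Fth1* kept its call in 1 of the 8 fits that left out 1 mouse and *Slc40a1* in 6, and *Slc40a1* did not pass with library size as the sole scaling (-0.26, adjusted p = 0.0798).

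In the model of all 30 samples the 14-dpf calls fell to 0 of 7 for haem synthesis, 1 of 14 for membrane and skeleton, 1 of 14 for terminal maturation, 0 of 4 for haemoglobin and 3 of 12 for transcription factors, while for the erythropoietin pathway they went from 2 to 4 of 7. That model called more genes in all, 12.7% higher and 17.3% lower. At 6-dpf 4 genes of these lists, which hold 4 to 14 tested genes each, were higher (*Hbb-bs*, *Stat5b*, *Fth1* and the tropomodulin gene *Tmod1*, at 0.85 with SE 0.21 and adjusted p = 0.0354) and 1 lower (*Slc40a1*), and at 10-dpf 2 were higher (*Stat5a* and *Stat5b*). Over all genes 5.31% were higher and 5.61% lower at 6-dpf, and 3.01% were higher and 3.44% lower at 10-dpf. With 1 mouse left out at 6-dpf, *Tmod1* passed in 2 of 8 fits and *Stat5b* in 2 of 8. Of the 12 transcription factors and partners 10 were above 0 at 6-dpf and 8 at 10-dpf, with 0 calls, and of the 7 haem synthesis genes 7 were above 0 on both days, with 0 calls. Of the 14 membrane genes 14 were above 0 on both days, with medians of 0.37 and 0.38 and 1 and 0 calls, and of the 14 maturation genes 14 were above 0 on both days, with medians of 0.38 and 0.45 and 0 calls. These counts of signs have no share of all genes above 0 beside them and are descriptions only.

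**Figure D5:**
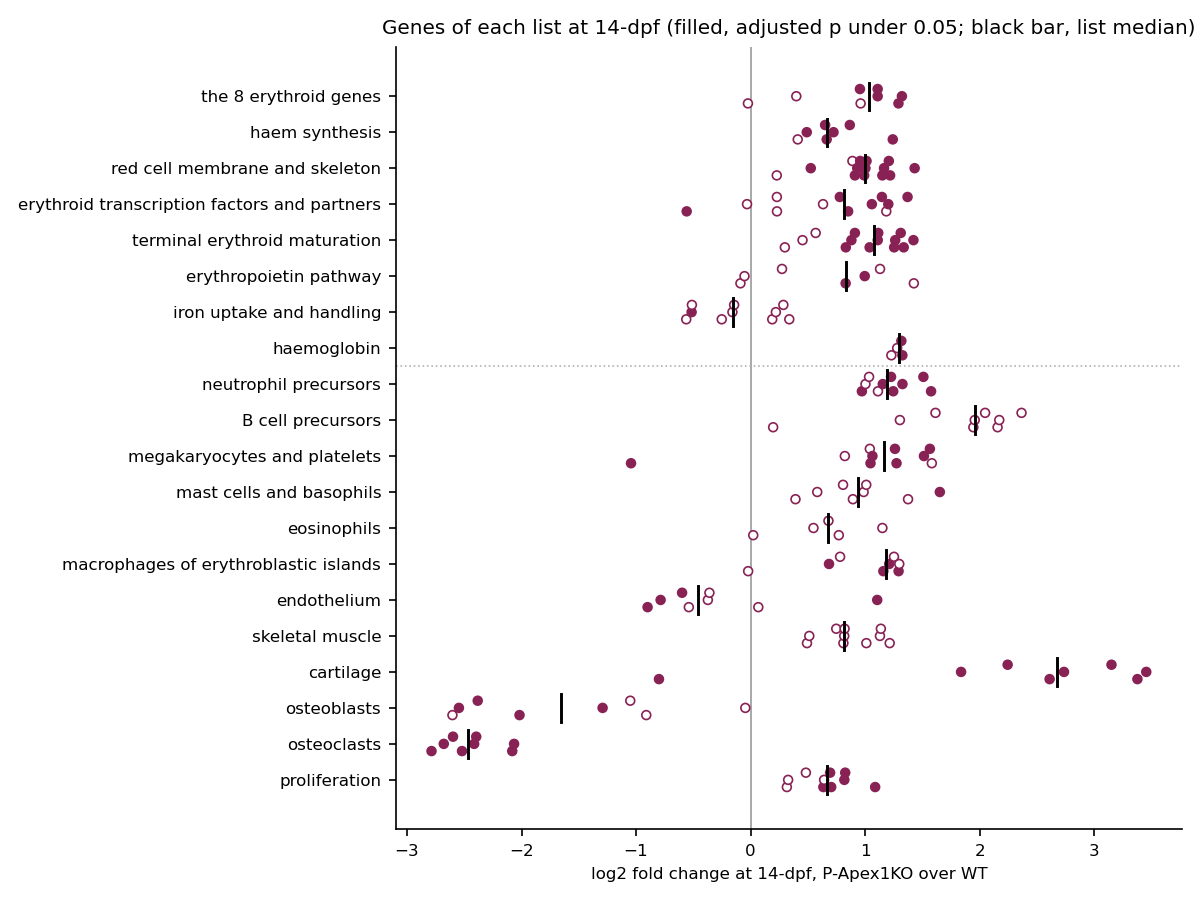
Log2 fold change of P-Apex1KO over WT at 14-dpf for the genes of each list, with red cell pathway lists above the dotted line, markers of other cells and of proliferation below it, filled points for an adjusted p under 0.05 and a black bar for the list median. Medians of the red cell lists other than iron lie between 0.66 and 1.30, the neutrophil precursor median is 1.19 and the osteoclast median is -2.47.

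Marker lists of other marrow cells were read in the same mice at 14-dpf, where 4.28% of all genes were higher and 7.04% lower. These calls too set the P-Apex1KO mice against the only WT female. The marker lists were not read in the model of all 30 samples. Of 10 markers of neutrophil precursors 7 were higher and 0 lower (median 1.19), with a summed level of 934 to 1400 CPM in WT and 2000 to 2520 CPM in P-Apex1KO. Of 10 markers of megakaryocytes and platelets 6 were higher and 1 lower (median 1.16), the latter being *Itgb3*, which osteoclasts also express, and the sum, which *Itgb3* enters, was 832 to 964 CPM in WT and 729 to 811 CPM in P-Apex1KO. Of 9 markers of B cell precursors 9 were above 0 (median 1.96), 0 passed, and the sum was 233 to 280 CPM in WT and 321 to 741 CPM in P-Apex1KO. Of 8 macrophage genes of erythroblastic islands, the niche in which erythroblasts mature, 4 were higher and 0 lower (409 to 470 CPM against 603 to 934 CPM). Their part in the erythroid values was not tested.

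The remaining lists were of tissue cells, other granulocytes and proliferation, and the shares and limits given for the marrow cells hold for them too. Of 10 skeletal muscle genes 10 were above 0 at 14-dpf and 0 passed, with sums of 1440 to 5260 CPM in WT and 3610 to 12800 CPM in P-Apex1KO. In the WT female the muscle sum was 5256 CPM, and in P-Apex1KO replicates 1 to 3 it was 3608, 11500 and 12830 CPM. Of 8 endothelial genes 1 was higher and 3 were lower. Of 8 cartilage genes 7 were higher and 1 lower, although their summed level overlapped, and of 8 osteoblast genes 0 were higher and 4 lower (75000 to 101000 CPM against 18800 to 21500 CPM). Of 10 proliferation genes 6 were higher and 0 lower (938 to 1120 CPM against 1560 to 1730 CPM). Mast cell and basophil markers had 1 of 8 higher and eosinophil markers 0 of 5, with all of them above 0. No marker of any of these lists was at 0 in every mouse of a group, and what part any of these cells had in the erythroid levels was not tested.

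At 10-dpf, where 0 of 8 erythroid genes passed, 1 of 10 neutrophil precursor markers was higher (median 1.00, 888 to 1860 CPM in WT and 1830 to 3510 CPM in P-Apex1KO) and 0 of 10 muscle genes (median 1.46). On that day 3 of 8 island macrophage genes, 2 of 5 eosinophil genes and 1 of 8 mast cell and basophil genes were also higher, and 0 of 9 B cell precursor genes passed. At 6-dpf 8 of 10 muscle genes, 3 of 9 B cell precursor markers, 2 of 8 mast cell and basophil markers and 4 of 8 island macrophage genes were higher, while 0 of 10 neutrophil precursor markers passed (median 0.12). Sums of some other lists were lower in P-Apex1KO without overlap. At 6-dpf cartilage genes summed to 32300 to 57700 CPM in WT and 2870 to 5080 CPM in P-Apex1KO. Osteoblast genes ran from 39200 to 54500 against 18300 to 28400 CPM. At 10-dpf osteoblast genes summed to 45000 to 63000 CPM in WT and 19900 to 30100 CPM in P-Apex1KO. Osteoclast genes ran from 3260 to 7540 against 1170 to 1940 CPM. Over all genes 5.31% were higher at 6-dpf and 3.01% at 10-dpf.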

How the data were processed

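RNA of ground tissue labelled fracture callus from 30 mice (at 3-dpf described by the study as tissue round the fracture) was depleted of ribosomal and beta globin RNA and made into stranded libraries. Per the labels and the study's methods, the authors aligned reads with STAR 2.7.0d to mm39 and used featureCounts to assign unique reads to genes by strand. The deposited values are raw whole-number counts, without normalization. Groups and sex came from the labels. Each sample was taken as the callus of 1 mouse, and p-values measure the spread between these samples.

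Gene symbols and positions were read from the GENCODE M39 annotation (GRCm39, as mm39), which held 54749 of 55416 IDs. The ID it gives for *Ahsp* was not matched. Each day was fitted alone with edgeR 4.0.16 in R 4.3.3 (filterByExpr, TMM, genotype and sex, robust quasi-likelihood F test, Benjamini-Hochberg adjustment over all genes tested, threshold 0.05), and 4-group models covered 3- with 6-dpf and 10- with 14-dpf. The SE is the log2 fold change over the square root of F. CPM were scaled by TMM over all 30 libraries. Depth was 18.3 M to 43.1 M counts, and whether depth or the number of mice limits precision was not tested. Members and lists were chosen with earlier results of these data known. Named were the 8 genes, the called list genes with the largest changes (up to 2 each way, on the day or days with most calls), the 10 genes most like the 8, of which some are not reported here, and, chosen after their values were seen, *Itgb3*, *Hbb-bs*, *Stat5b* and *Tmod1* at 6-dpf, the haemoglobin alpha copies and the examples of the membrane list. Alternatives were DESeq2 1.42.0, no sex term, other scalings and filters, haemoglobin genes left out, the replicate number as a block, 1 model of all samples and each mouse left out; 2 were added after seeing the data (both low 3-dpf libraries out, and mice left out without a sex term). The fits were tested on simulated counts.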

Additional observations from a re-analysis of the deposited data

Results flagged for a closer look

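Of the 5 groups of 4 or 5 mice, each examined for the 8 genes, 7 values stood apart from their group by Dixon's criterion, which flags about 1 in 20 groups by chance. Of these, 5 came from the same mouse, WT replicate 4 at 10-dpf, with 348 CPM of *Alas2* (others 183 to 210), 966 of *Slc4a1* (548 to 586), 24.2 of *Klf1* (13.8 to 14.8), 28.3 of *Gata1* (15.7 to 17.1) and 84.2 of *Epb42* (46.9 to 49.4). The genes are measured in the same library and go up and down together, so these are not 5 separate events. WT replicate 4 at 14-dpf had 500 CPM of *Slc4a1* against 468 to 470 in the other 3, a gap that is large only beside their narrow range. P-Apex1KO replicate 1 at 3-dpf had 2.65 CPM of *Epor* against 18.4 to 19.4.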

How the results depend on the processing

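At 14-dpf, 5 erythroid genes were called, 5 to 7 under the alternatives (3.13% to 18.8% of all genes higher) and 0 with all samples in 1 model; each mouse left out gave 5 to 7 (2.0% to 18.3%). At 6-dpf 1 gene (*Epor*) was called with DESeq2, library size or no filter (8.14%, 13.7% and 3.09% of all genes higher). At 10-dpf 0 to 5 were called with a mouse left out (0.113% to 5.38%). The labels do not pair the mice by replicate number. Correlations of same-numbered mice were -0.25 to 0.39, the highest for replicate 1 at 3-dpf. On that day P-Apex1KO replicates 1, 2 and 4 were each most like the WT mouse of the same number. With the replicate block in place of sex 4 genes were called at 10-dpf (3.78% of all genes higher) and 6 at 14-dpf (6.66%). Values of the other sign were -0.013 (*Slc4a1*), -0.11 (*Klf1*), -0.045 (*Epor*), -0.079 (*Gata1*) and -0.022 (*Epb42*) at 3-dpf, and -0.062 (*Slc4a1*), -0.028 (*Klf1*), -0.11 (*Gata1*), -0.018 (*Rhag*), -0.0496 (*Tfrc*) and -0.068 (*Epb42*) at 6-dpf. *Tfrc* at 10-dpf was 0.012 with library size and 0.027 with the block, and at 14-dpf 0.25 with library size and 0.0072 with at least 10 counts in every sample. With a mouse left out, values at 10-dpf ran from -0.060 to 0.73 for *Klf1*, from -0.013 to 0.68 for *Gata1* and from -0.14 to 0.052 for *Tfrc*, and from -0.229 to 0.063 for *Tfrc* at 14-dpf. From 10- to 14-dpf in WT 0 to 2 genes were called lower with a mouse left out (2.69% to 6.72% of all genes lower).

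Counts over all genes moved more. At 3-dpf the 0 genes became 85 with DESeq2, 4 with no filter, 1 with the replicate block, 38 in 1 model, 4 without both low libraries and 0 to 10 with a mouse left out. At 6-dpf the 2212 became 3594 with library size, 677 with the block and 890 to 2359 with a mouse left out. At 10-dpf the 1221 became 2187 with DESeq2, 750 with no sex term and 42 to 1827 with a mouse left out. At 14-dpf the 2289 became 6849 with no sex term, 6188 in 1 model and 1206 to 6557 with a mouse left out. Interactions between 3- and 6-dpf went from 267 to 718 with DESeq2, 433 with library size and 104 to 450; between 10- and 14-dpf from 86 to 465 with DESeq2, 8 with library size and 2 to 206. From 10- to 14-dpf the P-Apex1KO count went from 51 to 550 with DESeq2, 672 with no sex term and 0 to 252, and the WT count from 2190 to 1162 to 2760; from 3- to 6-dpf the counts with a mouse left out were 1223 to 3258 in P-Apex1KO. The cause was not tested. Leaving out the WT female of 14-dpf could not be fitted with sex.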
